A study of Rattus norvegicus with 6 samples.

Results

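Genes used by neutrophils, and the cytokine that calls them from the bone marrow, were described singly in rat myocardium after ischemia/reperfusion (I/R). The 10 genes were S100a8, S100a9, Lcn2, Mpo, Csf3r, Cxcr2, Fpr1, Fpr2, Trem1 and Csf3, and they were chosen by name from the 28293 genes of the table. Each symbol matched an entry, 9 of the 10 were above 0 in at least 1 library, and 5 passed a filter on low values. The samples were 3 sham libraries and 3 I/R libraries made from total RNA of myocardial tissue of wild-type male rats. In the I/R group the left anterior descending coronary artery was tied for 30 min and the heart was taken after 6 h of reperfusion. The labels of the sham libraries, whose treatment is given as Sham, carry the same 30 min and 6 h. Strain and age, the part of the heart sampled, and whether each library came from a different rat are not given in the sources used here, so p-values measure the spread between these libraries, which may be partly technical. The methods describe a vehicle injection of PBS for the sham and reperfusion groups of a treatment experiment, and whether the sequenced rats received it is not stated. Levels are in FPKM, fragments scaled to the length of the gene and to the size of the library, so that genes of different length can be compared.

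Neutrophils are short-lived white blood cells made in the bone marrow and are among the earliest to enter reperfused heart muscle. They leave the marrow under granulocyte colony-stimulating factor, follow chemokines and formylated peptides through G protein-coupled receptors on their surface, and act through proteins packed into granules. Granule proteins such as myeloperoxidase are transcribed in marrow precursors, and their mRNA is largely gone from mature neutrophils in tissue, whereas S100a8 and S100a9 mRNA stays abundant in mature cells. Several of the 10 genes are not particular to neutrophils: monocytes also transcribe S100a8, S100a9 and Trem1, injured epithelium and heart muscle can transcribe Lcn2, and Csf3 is made by stromal cells, endothelium and macrophages. In pieces of whole tissue, more cells of a type and more RNA per cell cannot be told apart.

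Csf3, Lcn2, S100a9 and S100a8 were higher after I/R. The secreted proteins Lcn2, S100a9 and S100a8 stood at 4.09, 4.01 and 3.40 times their mean sham level, and Csf3 went from 0 or a single fragment per library to a mean of 2.90 FPKM. The receptor genes were far lower in level, between 0.0125 and 0.744 FPKM on average in either group, and Csf3r, the only receptor that passed the filter, missed the threshold. Mpo, whose enzyme fills the primary granules of neutrophils, was listed at 0 in all 6 libraries. Of the 5 genes that passed the filter, 4 were called higher and 0 lower by limma at an adjusted p under 0.05, where 25.5% of the 10942 genes tested were called higher and 7.36% lower. S100a8 was not called without sham 2 and Csf3r was not tested without I/R 3, which left 3 genes and 4 genes called, respectively. Among 5 scalings of the libraries, described below, Csf3 and Lcn2 were called under 5, S100a9 under 4 and S100a8 under 2. In the fit without the filter, which tested 19226 genes and called 11.4% of them higher, 6 of the 9 genes above 0 were called higher, with Trem1 and Fpr1 as the additional calls. Every I/R library exceeded every sham library in 8 of the 9 genes, and in 23.9% of the 19226 genes. Because Csf3 and Csf3r passed the filter only through their I/R values, the counts over the filtered genes describe those 5 and not all 10.

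**Figure D1:**
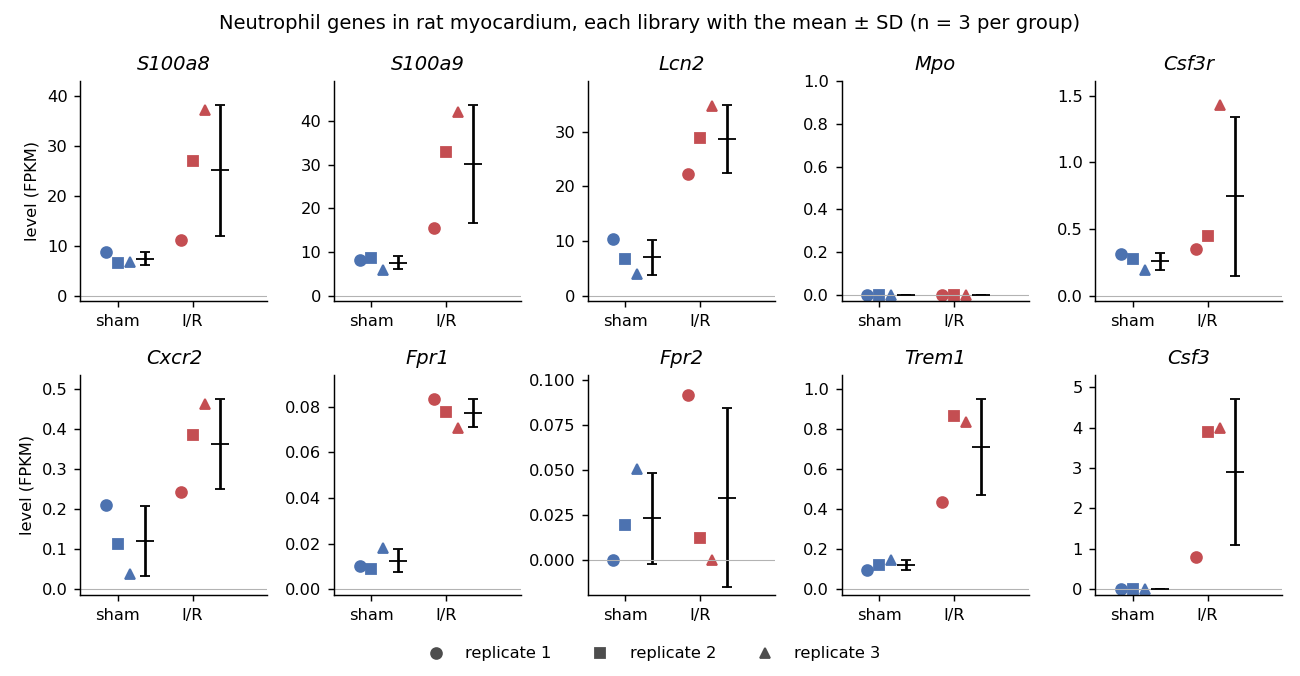
Level of each of the 10 genes in FPKM (vertical axis, linear, a separate scale for each panel) in the sham and I/R groups, with 1 point per library, symbols by replicate number, and the mean ± SD beside the points (n = 3 per group). The I/R points lie above the sham points in every panel except Fpr2, where they overlap, and Mpo, which is at 0 throughout.

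The libraries differed in a way that touches every level below. The mRNAs encoded by mitochondrial DNA held 80.1% to 86.2% of the summed FPKM in the sham libraries and 61.8% to 71.5% in the I/R libraries, and FPKM are shares of a library. When the levels were rescaled over all other genes, the typical gene's log2 fold change (the median over the genes tested) moved from 0.29 to -0.46, and the calls over all genes went from 2790 higher and 805 lower to 793 higher and 2857 lower. Rescaling to TPM, centring on the median and quantile normalization gave medians of 0.48, 0.04 and -0.02, with 3449 higher and 504 lower, 2020 higher and 1554 lower, and 1441 higher and 1559 lower calls. Without sham 3 the higher calls fell to 1526 and the lower calls to 348, and without sham 2 the lower calls fell to 305. After the rescaling over other genes, no overlap with I/R higher remained for 4 of the 9 genes (Lcn2, Fpr1, Trem1 and Csf3), and was seen for 7.5% of all genes. Under all 5 scalings the log2 fold change was above 0 for S100a8, S100a9, Lcn2, Csf3r and Csf3, and under the 4 scalings that kept genes below the filter also for Cxcr2, Fpr1 and Trem1. Fpr2 was above 0 in 2 of 4. Summed cardiomyocyte markers were also higher, at 3219 to 10510 FPKM in sham and 21170 to 30371 FPKM in I/R, with 5 of the 6 markers called higher, and their part in the results was not tested.

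S100a8 and S100a9 encode small calcium-binding proteins that pair to form calprotectin, an abundant protein of the neutrophil cytosol, which binds zinc and manganese and is released as an alarm signal. S100a8 (ENSRNOG00000011557) was at 8.82, 6.52 and 6.78 FPKM in sham 1, 2 and 3 and at 11.1, 26.9 and 37.2 FPKM in I/R 1, 2 and 3. The groups did not overlap, but I/R 1 stood much closer to the sham libraries than to the other I/R libraries. Its mean rose from 7.37 ± 1.26 to 25.1 ± 13.1 FPKM (SD, n = 3), a log2 fold change of 1.60 with a standard error of 0.40 (limma, adjusted p = 0.014). The call was lost without sham 2 (1.52, adjusted p = 0.063), and with centring on the median (1.35, adjusted p = 0.062), quantile normalization (0.96, adjusted p = 0.147) and the rescaling over other genes (0.82, adjusted p = 0.111). After that rescaling, I/R 1 was at 7.92, below the sham range of 9.74 to 10.5, while I/R 2 and I/R 3 were at 22.3 and 31.5.

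S100a9 (ENSRNOG00000011483) was at 8.11, 8.65 and 5.81 FPKM in sham 1, 2 and 3 and at 15.5, 33.0 and 42.1 FPKM in I/R 1, 2 and 3. The order of the I/R libraries was that of S100a8, and again no I/R library fell into the sham range. The mean rose from 7.52 ± 1.51 to 30.2 ± 13.5 FPKM (SD, n = 3), a log2 fold change of 1.89 with a standard error of 0.36 (limma, adjusted p = 0.0057). Quantile normalization ended the call (1.20, adjusted p = 0.060), and after the rescaling over other genes the groups overlapped, with I/R 1 at 11.1 inside the sham range of 8.99 to 12.9, though the gene was still called (1.12, adjusted p = 0.029). The ratio of S100a8 to S100a9 was 1.09, 0.754 and 1.17 in sham 1, 2 and 3 and 0.717, 0.814 and 0.884 in I/R 1, 2 and 3. These ratios overlapped between the groups (difference of the log2 ratio -0.30, two-sided exact permutation test, p = 0.3, and 0.45 after adjustment over the 6 ratios compared). In each library the lower gene of the pair was thus at no less than 0.717 of the other per length.

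The promoters of S100a9 and Lcn2 are shown because both genes rose and their promoters differ in the motifs found. Each stretch holds the 250 bases before the start of the gene, 5′ to 3′ on the gene's strand, from RefSeq on the GRCr8 build. S100a9 lies on the minus strand at chr2:178490623-178490872, Lcn2 on the minus strand at chr3:36081781-36082030, and capitals mark the motif matches.
S100a9 promoter: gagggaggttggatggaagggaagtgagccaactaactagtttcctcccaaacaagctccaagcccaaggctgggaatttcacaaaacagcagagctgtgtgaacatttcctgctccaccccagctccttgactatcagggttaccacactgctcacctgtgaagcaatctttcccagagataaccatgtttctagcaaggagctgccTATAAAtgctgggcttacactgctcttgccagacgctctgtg
Lcn2 promoter: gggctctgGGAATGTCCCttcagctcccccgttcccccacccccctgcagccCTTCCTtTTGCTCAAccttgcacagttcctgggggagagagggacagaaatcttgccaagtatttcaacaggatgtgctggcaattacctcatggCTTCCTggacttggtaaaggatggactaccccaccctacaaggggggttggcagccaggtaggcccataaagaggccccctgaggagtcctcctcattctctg
The search covered these stretches with the 50 bases after the start, on both strands, for the NF-kB consensus, the C/EBP core TTGCNNAA, the PU.1/ETS core AGGAAG and the TATA box TATAAA, and no match overlapped another. S100a9 had a TATA box 42 bases before the start and no other match. In Lcn2, GGAATGTCCC on the opposite strand fitted the NF-kB consensus 242 bases before the start, TTGCTCAA the C/EBP core at 191 bases, and CTTCCT the opposite strand of the PU.1/ETS core at 198 and 103 bases before the start and again just after it. Promoters were listed for 8 of the 10 genes, all but S100a8 and Csf3. The NF-kB consensus was in 1 of the 8 and in 4.18% of 33469 rat promoters, the C/EBP core in 2 of the 8 (Lcn2 and Fpr2) and in 10.6%, the PU.1/ETS core in 6 of the 8 (all but S100a9 and Fpr1) and in 34.5%, and the TATA box in 3 of the 8 (S100a9, Fpr2 and Trem1) and in 14.2%.

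Lcn2 (ENSRNOG00000013973) encodes lipocalin-2, a secreted protein of the neutrophil's secondary granules that withholds iron from bacteria by binding their siderophores. It was at 10.4, 6.64 and 3.98 FPKM in sham 1, 2 and 3 and at 22.3, 28.9 and 34.8 FPKM in I/R 1, 2 and 3. The lowest I/R library was above the highest sham library, sham 1, and the I/R libraries were closer to each other than for S100a8 or S100a9. The mean rose from 7.02 ± 3.24 to 28.7 ± 6.28 FPKM (SD, n = 3), a log2 fold change of 2.10 with a standard error of 0.34 (limma, adjusted p = 0.0037). It was called under every scaling and with any 1 library left out, at log2 fold changes of 1.32 to 2.43, and its groups stayed apart after the rescaling over other genes, at 6.17 to 11.6 in sham and 15.9 to 29.5 in I/R. The ratio of Lcn2 to S100a9 ran from 0.684 to 1.29 in sham and from 0.827 to 1.44 in I/R, highest in library 1 of each group, and did not separate the groups (exact permutation test, p = 0.5, and 0.6 after adjustment).

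Mpo (ENSRNOG00000008310) encodes myeloperoxidase, the enzyme of the primary granules that makes hypochlorous acid. It was listed at 0 in every library. So were Prtn3 and Ctsg, serine proteases of the same granules, and Ltf, the lactoferrin of the secondary granules. Elane, neutrophil elastase, was listed at 0 in the 3 sham libraries and in I/R 2 and at 0.120 and 0.0297 FPKM in I/R 1 and I/R 3, and Camp, cathelicidin, at 0 in sham and 0.0463, 0.605 and 0.0459 FPKM in I/R 1, 2 and 3. Mpo, Prtn3, Ctsg and Ltf were thus at 0 in both groups. Elane and Camp were at 0 in sham, and Camp reached 14 fragments in I/R 2. Ngp of the same list was at 0.0190 to 0.128 FPKM in sham and 0.0461 to 0.346 FPKM in I/R. Of the 13 granule proteins in the table, 3 passed the filter and 2 were called higher, and Mmp8 and Pglyrp1 passed it only through their I/R values. Mmp8, neutrophil collagenase, was at 0.221, 0.226 and 0.0818 FPKM in sham 1, 2 and 3 and at 0.984, 1.68 and 2.28 FPKM in I/R 1, 2 and 3 (log2 fold change 2.64 with a standard error of 0.42, limma, adjusted p = 0.0035). Chi3l1, a chitinase-like protein that macrophages also make, went from a mean of 1.68 ± 0.320 to 4.79 ± 3.06 FPKM (SD, n = 3) with a log2 fold change of 1.31 (limma, adjusted p = 0.025), a call that was lost without sham 1, sham 2 or I/R 3 (1.20, 1.27 and 0.83), with centring, quantile normalization and no filter, and after the rescaling over other genes (0.55, adjusted p = 0.305). Mmp9, gelatinase B of the tertiary granules, stayed under the filter, at 0.0065 to 0.0461 FPKM in sham and 0.308 to 0.345 FPKM in I/R, and was called in the fit without the filter (1.70, adjusted p = 0.016). Padi4, which citrullinates histones in neutrophils, was at 0.0091 to 0.0439 FPKM in sham and 0.0949 to 0.259 FPKM in I/R and was called in the same fit (1.22, adjusted p = 0.034).

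**Figure D2:**
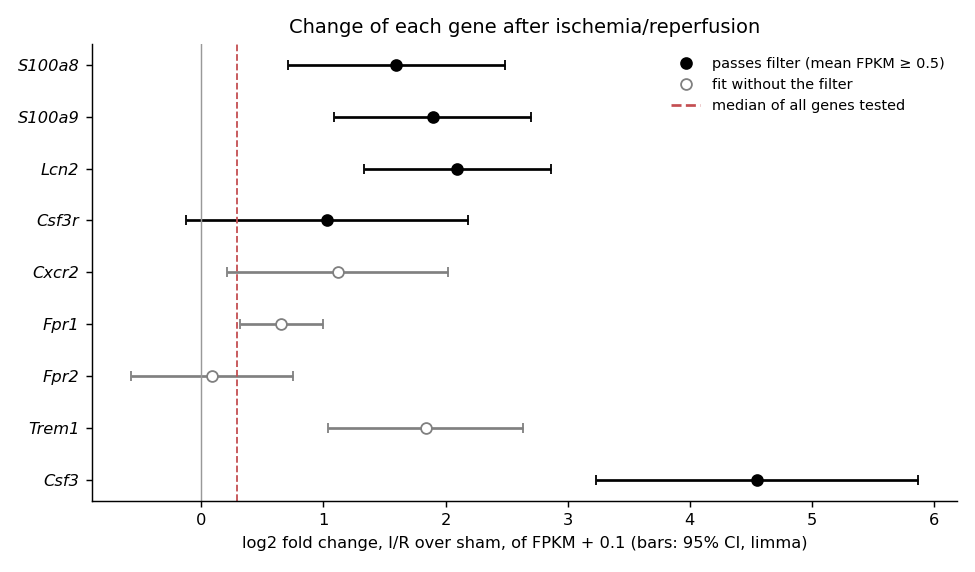
Log2 fold change of FPKM + 0.1, I/R over sham (horizontal axis), for the 9 genes above 0, with 95% confidence intervals from limma. Filled points passed the filter on low values and open points come from the fit without it, and the dashed line is the median of all genes tested, 0.29. The intervals of S100a8, S100a9, Lcn2, Trem1 and Csf3 lie to the right of 0.7 on this scale, and those of Csf3r and Fpr2 cross 0.

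The deposited FPKM values could be turned back into small whole numbers of fragments, since each gene's values were whole multiples of a common step once the relative depth of the libraries was known (within 0.02 of a whole number). These are the smallest whole numbers that fit the values. Relative depth was 1, 1.18 and 1.14 in sham 1, 2 and 3 and 0.873, 0.935 and 0.881 in I/R 1, 2 and 3. Over the 3 libraries of a group, sham and I/R, S100a8 had 365 and 1019 fragments, S100a9 710 and 2322, and Lcn2 1090 and 3692. Intervals on their ratios cover counting error only, not the spread between libraries. At that error the ratio per depth was 3.44 (95% exact binomial interval 3.05 to 3.89) for S100a8, 4.03 (3.71 to 4.39) for S100a9 and 4.18 (3.90 to 4.47) for Lcn2, intervals much narrower than the spread between the I/R libraries.

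Csf3r (ENSRNOG00000008759) encodes the receptor for granulocyte colony-stimulating factor, through which the marrow forms and releases neutrophils. Its level was 0.313, 0.272 and 0.189 FPKM in sham 1, 2 and 3 and 0.350, 0.450 and 1.43 FPKM in I/R 1, 2 and 3. The groups did not overlap, yet I/R 1 and I/R 2 lay just above the sham range and I/R 3 stood far above them. The means were 0.258 ± 0.0636 and 0.744 ± 0.598 FPKM (SD, n = 3), and the log2 fold change of 1.03 with a standard error of 0.52 did not pass (limma, adjusted p = 0.150), with a 95% confidence interval from -0.12 to 2.19. The fitted value was 0.42 with a pseudocount of 1 and 0.43 after the rescaling over other genes. Its mean over the 6 libraries, 0.501 FPKM, was barely above the filter, so without I/R 3 the gene was not tested. It had 41, 42 and 28 fragments in sham 1, 2 and 3 and 40, 55 and 165 in I/R 1, 2 and 3, so I/R 3 supplied most of the I/R fragments. After the rescaling over other genes, I/R 1 and I/R 2, at 0.250 and 0.374, were no longer above the sham range of 0.292 to 0.406.

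Cxcr2 (ENSRNOG00000063618) encodes the receptor by which neutrophils follow CXC chemokines into tissue. It was at 0.212, 0.114 and 0.0381 FPKM in sham 1, 2 and 3 and at 0.242, 0.386 and 0.464 FPKM in I/R 1, 2 and 3. Sham 1 and I/R 1 nearly met, and the other libraries were well apart. The gene did not pass the filter, and in the fit without it the log2 fold change of 1.12 with a standard error of 0.38 missed the threshold (limma, adjusted p = 0.097). With 44, 28 and 9 fragments in sham and 44, 75 and 85 in I/R, the ratio per depth was 3.11 (95% exact binomial interval 2.39 to 4.07). The ratio of Cxcr2 to Csf3r ran from 0.202 to 0.675 in sham and from 0.324 to 0.858 in I/R, lowest in sham 3 and in I/R 3, and overlapped (exact permutation test, p = 0.8, also after adjustment).

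Fpr1 and Fpr2 encode formyl peptide receptors, which detect N-formylated peptides from bacteria and from mitochondria of damaged cells. Fpr2 also binds annexin A1, a resolving ligand. Both belong to a family of close copies, so fragments may be shared among them, and both were at the limit of what these libraries could measure. Fpr1 (ENSRNOG00000011174) was at 0.0104, 0.0088 and 0.0183 FPKM in sham 1, 2 and 3, which were 1, 1 and 2 fragments, and at 0.0832, 0.0777 and 0.0706 FPKM in I/R 1, 2 and 3, which were 7, 7 and 6 fragments. The I/R libraries were close to each other and all above sham, with a ratio per depth of 6.17 whose 95% exact binomial interval reached from 2.07 to 24.8. Below the filter, its log2 fold change of 0.66 with a standard error of 0.14 was called in the fit without the filter (limma, adjusted p = 0.030), although 3 fragments, the limit that a count of 0 allows, correspond to 0.0311 FPKM in sham 1, above each sham level.

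Fpr2 (ENSRNOG00000042605) was at 0, 0.0193 and 0.0501 FPKM in sham 1, 2 and 3, with 0, 2 and 5 fragments, and at 0.0912, 0.0122 and 0 FPKM in I/R 1, 2 and 3, with 7, 1 and 0 fragments. The groups overlapped, and each held a library at 0, which in sham 1 allows up to 0.0341 FPKM. The log2 fold change of 0.09 with a standard error of 0.28 had a 95% confidence interval from -0.57 to 0.75 in the fit without the filter (limma, adjusted p = 0.863), and turned below 0 with centring on the median and with the rescaling over other genes. No difference was detectable at this depth. The log2 ratio of Fpr2 to Fpr1 differed by -0.57 between I/R and sham, within the spread (exact permutation test, p = 0.2, and 0.4 after adjustment). Summed over each group, there were 7 fragments of Fpr2 and 4 of Fpr1 in sham and 8 and 20 in I/R.

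Trem1 (ENSRNOG00000022859) encodes a receptor on neutrophils and monocytes that amplifies inflammatory signals through the adaptor encoded by Tyrobp. It was at 0.0952, 0.121 and 0.147 FPKM in sham 1, 2 and 3 and at 0.436, 0.866 and 0.837 FPKM in I/R 1, 2 and 3. The lowest I/R library was well above the highest sham library, also after the rescaling over other genes, at 0.106 to 0.228 in sham and 0.312 to 0.719 in I/R. Its mean over the 6 libraries, 0.417 FPKM, was below the filter, and in the fit without it the log2 fold change was 1.84 with a standard error of 0.34 (limma, adjusted p = 0.022). The counts were 4, 6 and 7 fragments in sham and 16, 34 and 31 in I/R, a ratio per depth of 5.88 (95% exact binomial interval 3.45 to 10.6). Of the receptor genes, Trem1 and Fpr1 were called in that fit. Cxcr2 missed the threshold after adjustment although its 95% confidence interval, 0.21 to 2.02, lay above 0, and the intervals of Csf3r and Fpr2 held 0. Differences between genes were tested only as ratios within a library, of which Trem1 to Csf3r changed by 0.81 on the log2 scale and S100a9 to Csf3r by 0.86, with exact permutation p-values of 0.2 and 0.1 and 0.4 for both after adjustment. Without I/R 2 these differences were 0.46 and 0.54, and without I/R 3, 1.22 and 1.11.

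**Figure D3:**
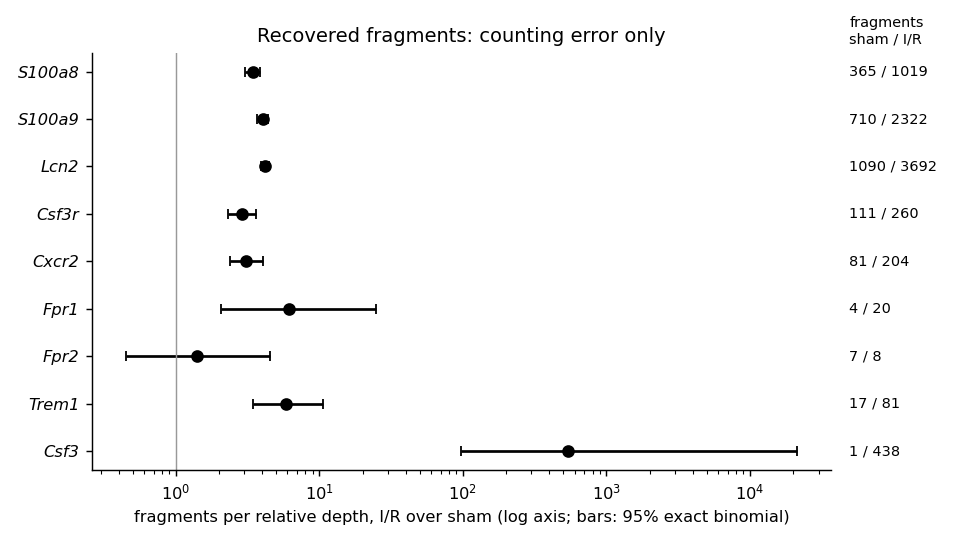
Ratio of recovered fragments per relative depth, I/R over sham (horizontal axis, log scale), for the 9 genes above 0, with 95% exact binomial intervals for counting error alone and the fragments summed over 3 libraries per group at the right. The intervals of Fpr1 (4 and 20 fragments) and Csf3 (1 and 438) are wide, that of Fpr2 spans 1, and those of the other genes lie above 2.

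Csf3 (ENSRNOG00000008525) encodes granulocyte colony-stimulating factor itself, the ligand of Csf3r. It was listed at 0 in sham 1 and sham 3, where a count of 0 allows up to 0.0539 and 0.0475 FPKM, and at 0.0152 FPKM in sham 2, which was 1 fragment. In I/R 1, 2 and 3 it was at 0.803, 3.90 and 4.0 FPKM, from 39, 203 and 196 fragments. I/R 1 again held the lowest I/R level, well under the other two, and was still far above every sham library. The mean rose from 0.00507 ± 0.00879 to 2.90 ± 1.82 FPKM (SD, n = 3). The fitted log2 fold change of 4.55 with a standard error of 0.59 (limma, adjusted p = 0.0022) depends on the pseudocount, being 1.81 with a pseudocount of 1 and 7.42 with 0.01, and the gene was called under all of them. From fragments the ratio per depth was 540, with a 95% exact binomial interval from 96.4 to 21383. For its receptor Csf3r the same ratio was 2.89, with an interval from 2.30 to 3.64.

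Ordered by level per length, the same 3 secreted genes led in both groups. In sham, S100a9, S100a8 and Lcn2 were at 7.52, 7.37 and 7.02 FPKM, and their ranges overlapped. Csf3r (0.258), Cxcr2 (0.121) and Trem1 (0.121) followed, with overlapping ranges for Csf3r and Cxcr2 and for Cxcr2 and Trem1. Fpr2 (0.0231), Fpr1 (0.0125) and Csf3 (0.00507) overlapped at the bottom, above Mpo at 0. The ranges of Cxcr2 and Fpr2 also overlapped. In I/R the leading genes were again S100a9, Lcn2 and S100a8, at 30.2, 28.7 and 25.1 FPKM with overlapping ranges. Csf3 (2.90) was next and overlapped with Csf3r (0.744) and Trem1 (0.713). Csf3r, Trem1 and Cxcr2 (0.364) overlapped with each other. Fpr1 (0.0772) lay below all of these without overlap and overlapped with Fpr2 (0.0345), and Mpo was again at 0. Within the I/R group, I/R 1 was the lowest library for 7 of the 9 genes above 0 and I/R 3 the highest for 6. Across the genes, I/R 1 was also the library with the lowest share of mitochondrially encoded mRNA, at 61.8%, and the part of that share in its levels was not tested.

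**Figure D4:**
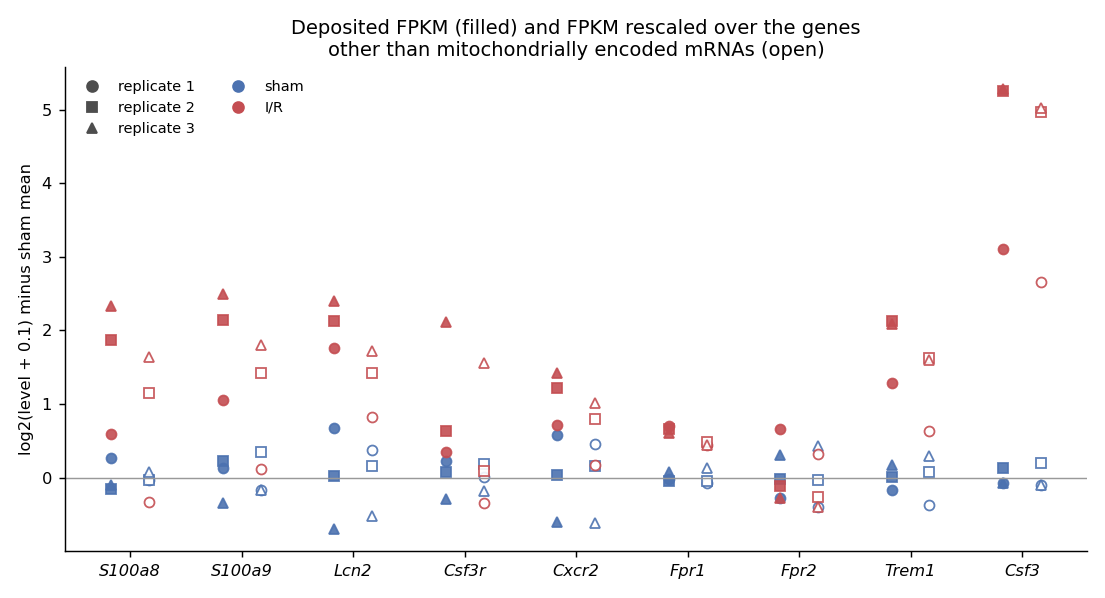
Log2(level + 0.1) of each library minus the sham mean (vertical axis) for the 9 genes above 0, from deposited FPKM (filled symbols) and from FPKM rescaled over the genes other than mitochondrially encoded mRNAs (open symbols), with colour for the group and symbol shape for the replicate number. After rescaling, I/R 1 lies among the sham libraries or below them for S100a8, S100a9, Csf3r and Cxcr2, and the groups remain apart for Lcn2, Fpr1, Trem1 and Csf3.

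The levels were set against 8 genes that leukocytes of all kinds share, among them Ptprc, Coro1a, Laptm5 and Lcp1. The summed level of these 8 was 62.3 to 82.9 FPKM in sham and 69.2 to 69.8 FPKM in I/R, and 0 of the 8 were called by limma in either direction (at an unadjusted p under 0.05, 0 higher and 1 lower). Arhgdib weighed most in the sum, with means of 31.2 and 32.4 FPKM. Ptprc was lower without overlap, at 0.578 to 1.08 FPKM in sham and 0.381 to 0.462 FPKM in I/R (-0.93, limma, adjusted p = 0.067). The median log2 fold change of the 8 was -0.20, beside 0.29 for all genes tested. After the rescaling over other genes 5 of the 8 were called lower. Relative to the mean log2 level of these genes in the same library, a difference that no scaling of whole libraries changes beyond the pseudocount, S100a8 was higher in I/R by 1.81, S100a9 by 2.10, Lcn2 by 2.31, Trem1 by 2.05, Cxcr2 by 1.32, Csf3r by 1.24, Fpr1 by 0.86 and Csf3 by 4.76 on the log2 scale. For these 8 of the 9 genes above 0, every I/R library was above every sham library. This gives p = 0.1 in a two-sided exact permutation test, the smallest that 3 against 3 allows, and 0.11 after adjustment over the 9 genes. The share of all genes that separate on this measure was not computed, so the count has no background to stand beside. Fpr2 differed by 0.30, with overlap (exact permutation test, p = 0.4). The size of these differences depends on the pseudocount for the genes of low level. With pseudocounts of 1 and 0.01, Csf3r was at 0.54 and 1.47, Cxcr2 at 0.40 and 1.95, Fpr1 at 0.21 and 2.20, Trem1 at 0.72 and 2.65 and Csf3 at 1.94 and 7.65. Without I/R 3, Csf3r differed by 0.68. Other leukocyte markers moved in different directions. Of the resident macrophage genes, 8 were tested, 1 was called higher and 2 lower, of the monocyte genes 2 of 4 higher and 1 lower, and of the lymphocyte genes 0 of 4 higher and 1 lower. Among the macrophage genes, C1qb was the gene called higher, with a mean of 17.6 FPKM in sham and 30.1 FPKM in I/R (limma, adjusted p = 0.032), and Cd163 (2.66 and 0.935 FPKM) and Mrc1 (4.19 and 2.47 FPKM) were those called lower (adjusted p = 0.0057 and 0.040). Among the monocyte genes, Cd14 and Vcan (0.513 and 1.48 FPKM, adjusted p = 0.012) were called higher and Ccr2 (1.07 and 0.347 FPKM, adjusted p = 0.026) lower. The calls of C1qb, Mrc1 and Ccr2 were lost without sham 2, sham 3 or I/R 3, C1qb's also without I/R 2, Ccr2's without I/R 1, and Mrc1's without sham 1 or I/R 1, at log2 fold changes of 0.62 to 0.83 for C1qb, -1.36 to -1.03 for Ccr2 and -0.85 to -0.55 for Mrc1. C1qb turned to -0.06 with quantile normalization. After the rescaling over other genes, limma called 0 genes of either list higher and 2 of each lower. Fibroblast markers had 1 of 7 called higher and 0 lower. For endothelial, red blood cell and platelet markers limma called 0 of 7, 0 of 2 and 0 of 3 (at an unadjusted p under 0.05, 1 endothelial gene higher and 1 lower, and 0 of the others). These counts depend on the scaling. With quantile normalization 6 endothelial, 1 red blood cell and 2 fibroblast markers were called lower. After the rescaling over other genes the lower calls were 4, 1 and 2, and 0 of these markers were called higher under either. The part of these cells in the levels of S100a8, S100a9 and Trem1 was not tested.

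The ligands and partners of the 10 genes were followed in lists of their pathways. The counts of each list stand beside 25.5% higher and 7.36% lower calls over all genes tested. Among the ligands of Cxcr2, 3 of 3 tested were called higher, under every scaling too, with a median log2 fold change of 5.88 beside 0.29 for all genes. Cxcl1 was at 0.590, 0.540 and 0.976 FPKM in sham 1, 2 and 3 and at 56.0, 99.3 and 102 FPKM in I/R 1, 2 and 3 (log2 fold change 6.73 with a standard error of 0.31, limma, adjusted p = 1.2e-05). Cxcl1 was above Cxcr2, which reached 0.464 FPKM at most, in every library, and Cxcr1, the other receptor of this kind, was at or below 0.0078 FPKM in every library. Cxcl2 went from a mean of 0.0536 to 8.76 FPKM and Cxcl3 from 0.0354 to 3.18 FPKM (limma, adjusted p = 3.9e-05 and 0.0033), and like Csf3 both passed the filter only through the I/R group. In sham, these levels lay below the mean of Cxcr2, 0.121 FPKM. The ligand gene Cxcl6 was at 0.0139, 0.0587 and 0 FPKM in sham 1, 2 and 3 and at 0.0635, 0.563 and 0.456 FPKM in I/R 1, 2 and 3, and Ppbp, which platelets carry, at 0.0593 to 1.60 FPKM in sham and 0 to 0.611 FPKM in I/R, and neither passed the filter.

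In the list of granulocyte colony-stimulating factor signaling, 13 genes were tested, Csf3 and Csf3r among them, and 7 were called higher and 1 lower, with a median log2 fold change of 1.07. Cebpb, a C/EBP transcription factor of stress-induced granulocyte formation, was at 23.7, 6.85 and 3.16 FPKM in sham 1, 2 and 3 and at 126, 91.5 and 93.1 FPKM in I/R 1, 2 and 3 (log2 fold change 3.65, limma, adjusted p = 0.0035). Socs3, the feedback inhibitor of the receptor, went from 1.75 ± 1.02 to 19.3 ± 5.0 FPKM (SD, n = 3; log2 fold change 3.49, adjusted p = 0.00095). The signal transducer Stat3 was at 4.41 to 6.05 FPKM in sham and 12.2 to 15.0 FPKM in I/R and was called (1.37, adjusted p = 0.0037), though not after the rescaling over other genes (0.59, adjusted p = 0.092). The kinase gene Tyk2 was lower, at 1.71 to 2.14 FPKM in sham and 0.929 to 1.02 FPKM in I/R (log2 fold change -0.95, limma, adjusted p = 0.013), but not without sham 3 (-0.90, adjusted p = 0.066). All of these genes are used by other receptors and by heart muscle cells as well. After the rescaling over other genes, 4 of the 13 were called higher and 1 lower.

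Of 9 neutrophil and myeloid surface genes tested, 3 were called higher and 0 lower, beside 25.5% higher over all genes tested. Among these 3, 2 genes, Il1r2 and Il1rn, passed the filter only through their I/R values. After the rescaling over other genes, 2 of the 9 were called higher, and the median log2 fold change went from 0.76 to 0.07. Il1r2, the decoy receptor for interleukin-1, was at 0.155, 0.423 and 0.0911 FPKM in sham 1, 2 and 3 and at 1.24, 3.12 and 2.62 FPKM in I/R 1, 2 and 3 (log2 fold change 2.95 with a standard error of 0.46, limma, adjusted p = 0.0035). Csf2rb, the common chain of the receptors for interleukin-3 and related cytokines, went from 1.0 ± 0.524 to 5.35 ± 2.58 FPKM, and Il1rn, the interleukin-1 receptor antagonist, from 0.169 ± 0.0764 to 0.989 ± 0.546 FPKM (SD, n = 3; adjusted p = 0.0063 and 0.020). The call of Il1rn was lost after the rescaling over other genes (1.30, adjusted p = 0.090) and without sham 3 (1.86, adjusted p = 0.059). For these 3 genes as for the calprotectin genes, I/R 1 was the lowest I/R library. Alox5ap, the gene of highest mean in this list, was at 2.72 ± 0.778 FPKM in sham and 3.69 ± 0.101 FPKM in I/R (SD, n = 3). It was not called (log2 fold change 0.46, limma, adjusted p = 0.177).

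In the list of the TREM family and its adaptor, 0 of 4 tested genes were called by limma, with 0 at an unadjusted p under 0.05, and Tyrobp, through which Trem1 signals, was at 21.5 to 29.5 FPKM in sham and 23.7 to 29.0 FPKM in I/R, with a log2 fold change of 0.17 that turned below 0 with centring on the median, quantile normalization and the rescaling over other genes. After that rescaling, Trem2 was called lower (-1.22, adjusted p = 0.019), where its value without it was -0.50 (adjusted p = 0.223). In the list drawn up for receptors and adaptors of calprotectin, 3 of 5 were called higher and 1 lower. Cd14 (1.74 ± 0.646 to 5.84 ± 1.41 FPKM, SD, n = 3) and Ager (5.77 ± 1.34 to 2.88 ± 0.773 FPKM), which encodes the receptor RAGE, went in opposite directions (limma, adjusted p = 0.0043 and 0.021). Basp1 and Myd88 were the other calls, with log2 fold changes of 0.82 and 0.70. The place of Basp1 in this list is not established, so its call is not one of a known calprotectin receptor or adaptor. Ager was not called without sham 2 or I/R 1 (-0.81 and -0.76) and Basp1 and Myd88 were lost with 4 and 5 of the single libraries left out, at 0.68 and 0.59 or more. Myd88 turned to -0.06 after the rescaling over other genes, where 0 of the 5 were called higher and Cd14 had an adjusted p of 0.052 in limma. Of the 7 other S100 genes tested, 1 was called higher, S100a1 of heart muscle (14.9 ± 8.60 to 39.2 ± 9.49 FPKM, SD, n = 3, lost without sham 2 or sham 3 and under 3 scalings), and the most abundant, S100a11, was at 103 to 139 FPKM in sham and 126 to 176 FPKM in I/R (log2 fold change 0.39, adjusted p = 0.251). The median of these 7 was 0.12. For lipocalin-2, the receptor gene Slc22a17 was called higher, at 1.41 to 2.20 and 3.34 to 4.58 FPKM (adjusted p = 0.015), and not without sham 3 (0.80) or after the rescaling over other genes (0.24, adjusted p = 0.534). In the phagocyte NADPH oxidase, Ncf1 and Ncf4 were called of 5 tested, Ncf1 with 5.23 to 7.78 FPKM in sham and 12.3 to 27.6 FPKM in I/R (adjusted p = 0.0069). Ncf1 kept its call under each scaling, and Ncf4 lost it in 9 of the alternatives, among them 5 of the 6 that left out 1 library (0.75 to 1.03). Cyba, the gene of highest mean in that list, was at 30.7 to 31.0 FPKM in sham and 30.1 to 35.3 FPKM in I/R (log2 fold change 0.05, limma, adjusted p = 0.865). It was called lower with quantile normalization (-0.86, adjusted p = 0.028) and after the rescaling over other genes (-0.73, adjusted p = 0.037). On the side of the formyl peptide receptors, the inhibitory G protein genes Gnai3 and Gnai2 were called among 3 tested (adjusted p = 0.0065 and 0.015), both of which nearly every cell uses, and neither was called with quantile normalization, where Gnai2 turned to -0.09, or after the rescaling over other genes, nor Gnai2 without sham 3 (0.78). The other gene tested, Anxa1, which encodes the Fpr2 ligand annexin A1, had a mean of 21.5 FPKM in sham and 36.1 FPKM in I/R (0.74, adjusted p = 0.054) and was called with the replicate number as a block (adjusted p = 0.020), so all 3 were called there. Anxa1 was also called in TPM (0.94, adjusted p = 0.024). It turned to -0.16 with quantile normalization and to -0.04 after the rescaling over other genes, and 0 of the 3 genes were called under either.

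**Figure D5:**
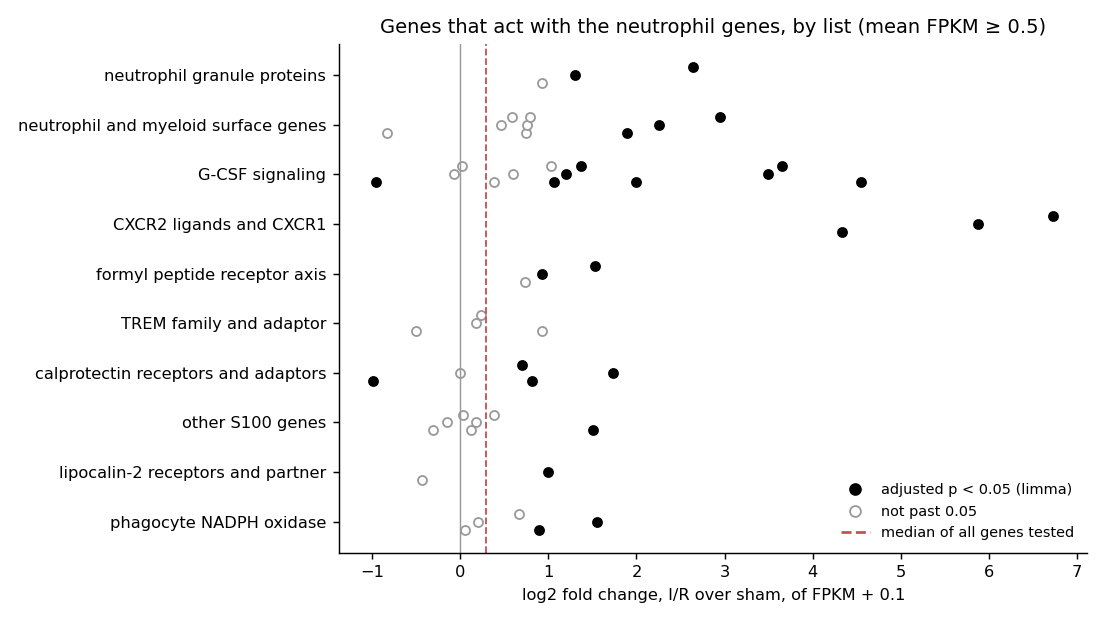
Log2 fold change of FPKM + 0.1, I/R over sham (horizontal axis), of each gene with a mean of at least 0.5 FPKM in 10 pathway lists (vertical axis), filled where the adjusted p from limma was under 0.05. The dashed line is the median of all genes tested, 0.29, and the ligands of Cxcr2 lie farthest to the right, at 4.33 to 6.73.

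The genes whose pattern over the 6 libraries was nearest to that of each gene past the filter were found by the root mean square difference of log2(FPKM + 0.1) from the sham mean, as a description. For S100a9 they were Timp1 (0.16), a matrix metalloproteinase inhibitor, Ch25h (0.19) and AABR07015941.1 (0.20). Timp1 was at 10.6, 13.1 and 9.51 FPKM in sham 1, 2 and 3 and at 28.4, 46.1 and 61.5 FPKM in I/R 1, 2 and 3, with the same order of the I/R libraries as S100a9. For S100a8, Cblc (0.30) and Sbno2 (0.30) were among the nearest, and S100a9 was as near (0.30). Lcn2 was nearest to Pmepa1 (0.14), Zc3h12a (0.23) and RGD1564664 (0.26), and nearer to each of these than to S100a9 (0.40) or S100a8 (0.57). Csf3r was nearest to AABR07029741.3 (0.27), Slc24a3 (0.28) and Cblc (0.34), and Csf3 to Cxcl3 (0.43), Has1 (0.48) and Ptx3 (0.57), each of which was lowest in I/R 1 and highest in I/R 3.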

How the data were processed

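RNA of 6 libraries (3 sham, 3 I/R) was analysed from 1 table in which the authors deposited FPKM values, scaled to gene length and library size. The submitters' processing notes name STAR and HTSeq, and versions, genome build and annotation are not given in the sources used here. Columns were matched to samples by name, and the 30452 entries of the table were summed by symbol to 28293 genes. Log2(FPKM + 0.1) of the 10942 genes with a mean of at least 0.5 FPKM was fitted by group in limma (version 3.58.1, under R 4.3.3, lmFit and eBayes with trend), with Benjamini-Hochberg adjustment over all genes tested and a threshold of 0.05. Each standard error is limma's. For single values a two-sided exact permutation test was used, with 0.1 as its smallest possible p at this size. Absolute depth is unknown. Relative depth and the smallest whole fragment numbers were recovered from the steps in the FPKM values, an alternative added after the data were seen.

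The members and the gene lists were chosen with earlier results of these data known. Named besides the 10 genes were, from each pathway list, up to 3 called genes with the largest positive and up to 2 with the largest negative log2 fold change and the gene of highest mean, and for each gene past the filter the 3 genes nearest in pattern. Elane, Camp, Ngp, Prtn3, Ctsg, Ltf, Mmp9, Padi4, Pglyrp1, Stat3, Cxcr1, Cxcl6, Ppbp, Trem2, Ptprc, Arhgdib, Cd163, Mrc1, C1qb, Vcan, Ccr2 and Anxa1 were named after their values were seen. The pan-leukocyte, cardiomyocyte, macrophage, monocyte, lymphocyte, fibroblast, endothelial, red blood cell and platelet lists are textbook markers. Deviations of same-numbered sham and I/R libraries from their group correlated at 0.203, 0.117 and 0.118. Among differently numbered pairs, sham 3 with I/R 2 reached 0.120, and the others were negative, from -0.185 to -0.0188. Pairs 2 and 3 were thus not set apart from every differently numbered pair, and a pairing by number is not established. The labels, which supply the numbers, name no common litter or day. The fit was repeated with the replicate number as a block. Alternatives were pseudocounts of 1 and 0.01, no filter or a mean of at least 5 FPKM, other scalings, no trend, the highest entry per symbol, the replicate block and leaving out each library. The fits were tested on simulated data. Some listed genes were not analysed here, and 1 gene near S100a8 in pattern is not reported here.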

Additional observations from a re-analysis of the deposited data

How the results depend on the processing

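The direction of S100a8, S100a9, Lcn2, Csf3r and Csf3 was the same in each alternative fit that gave a value. Log2 fold changes that fell below the threshold were those of S100a8 with centring on the median (1.35), quantile normalization (0.96) and rescaling over other genes (0.82) and without sham 2 (1.52), within a range of 1.23 to 2.10 for leaving out each library, and S100a9 with quantile normalization (1.20). Genes below the filter had no test in the main comparison. Without the filter Fpr1 (0.66) and Trem1 (1.84) passed. With pseudocounts of 1 and 0.01, Csf3r moved to 0.42 and 1.24, Cxcr2 to 0.28 and 1.72, Fpr1 to 0.089 and 1.98, and Trem1 to 0.60 and 2.42. Fpr1 moved to 0.80 in TPM, 0.41 with centring on the median and 0.46 with rescaling over other genes, and Trem1 to 1.28 with the latter. From recovered fragments, chosen after seeing the data, log2 ratios were 1.64 for Cxcr2, 2.62 for Fpr1, 2.55 for Trem1 and 9.08 for Csf3, and -2.13 for the change of Fpr2 over Fpr1. Quantile normalization left 2 of the genes called higher. The calls over all genes, 2790 higher and 805 lower, became 1441 and 1559 with quantile normalization, 793 and 2857 with rescaling over other genes, and 1526 to 2567 higher and 305 to 880 lower with 1 library left out. Lower calls were 166 with a mean of at least 5 FPKM, 504 in TPM and 1554 with centring. The log2 ratio of Cxcr2 to Csf3r, 0.08, turned to -0.14 with a pseudocount of 1 and ranged from -0.16 to 0.47 with 1 library left out, and that of Lcn2 to S100a9, 0.20, from -0.047 to 0.48. The cause of these changes was not tested.

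With the replicate number as a block, which pairs same-numbered libraries, 3085 genes were called higher and 895 lower, 2740 and 764 of them shared with the fit without it, and 4 of the 10 genes were called, as before. The block changed no call of these genes, and of the other genes named only that of Anxa1. With 3 libraries per group and counts of 0 to 85 fragments for Cxcr2, Fpr1, Fpr2 and Trem1, depth limits what can be seen of the receptors.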
